A study of Mus musculus with 8 samples.

Results

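Wnt target genes, Wnt ligand-processing genes and the TCF/LEF transcription factor genes were followed in mouse embryonic stem cells (ESCs, cultured pluripotent cells of the early embryo) through MYC inhibition and release from it. The set is a list of 10 gene symbols, and every probe set carrying one of these symbols alone was taken. Of the 10 genes, 8 were measured, by 14 of the 34945 probe sets with 1 gene symbol, among 18193 genes in all: Cdx1, Sp5, Notum, Axin2, Nkd1, Lef1, Tcf7l1 and Porcn. The other 2, T and Tcf7, were not analysed here, since no probe set was paired with either symbol in the annotation used. The study hybridised RNA of 8 samples to GeneChip expression arrays, 1 array per sample. In the Resc group (3 arrays) the cells had 60 h of the MYC inhibitor 10058-F4 at 64 μM and then 48 h in medium without it. In the MYCi group (2 arrays) they had 60 h of the inhibitor, and in the DMSO group (3 arrays) 60 h of solvent alone. All groups were grown in 2i medium, a serum-free and feeder-free medium with leukaemia inhibitory factor and a pair of kinase inhibitors, PD0325901 (1 μM, against MEK) and CHIR99021 (3 μM, against GSK3). No array of DMSO cells cultured to the time of the Resc harvest was among those analysed, so release and longer culture cannot be told apart. Whether replicates came from separate cultures is not given in the labels, and the spread behind each p-value may therefore be technical.

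In canonical Wnt signalling a secreted, lipid-modified ligand binds a Frizzled receptor and an LRP co-receptor. The destruction complex, in which AXIN and APC hold β-catenin for phosphorylation by CK1 and GSK3, is then blocked, and β-catenin enters the nucleus and joins DNA-bound TCF/LEF factors. In 2i medium the GSK3 inhibitor acts inside the cell, below ligand and receptor, and relieves repression of pluripotency genes by TCF7L1. AXIN2, NKD1 and NOTUM are feedback inhibitors of the pathway, encoded by genes that the pathway itself induces.

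The arrays carried high levels of the genes that define ESCs. Values are log2 expression units from RMA, the authors' normalization, and the bacterial Trpn control probe sets, which mark the bottom of the scale, lay between 2.15 and 2.95. The 10 pluripotent markers ran from 7.51 (Dppa3) to 12.41 (Pou5f1) over the 8 arrays. By the call rule given below, 4 of them rose with the inhibitor against DMSO, Zfp42 most (0.69). Another 2 fell, Dppa3 (-1.08) and Tdgf1 (-0.38). In Resc against DMSO 0 rose and 1 fell, Dppa3 (-1.33), where 8.66% of all genes were called. Of 8 trophectoderm markers 5 rose and 0 fell with the inhibitor against DMSO. The 5 were Krt18 (5.0), Krt8 (3.24), Eomes (2.23), Gata3 (1.28) and Krt7 (1.1), while Cdx2, Elf5 and Tfap2c were not called. The mean level of the list was 5.44 to 5.57 on Resc arrays and 7.07 and 7.18 on MYCi arrays, against 5.45 to 5.57 on DMSO arrays. Single genes still differed in Resc against DMSO: 1 was higher, Krt18 (1.59), and 2 were lower, Krt7 (-1.21) and Tfap2c (-1.08). With the inhibitor against DMSO, 1 of 10 primitive streak and mesoderm markers rose (Eomes, also a trophectoderm gene) and 2 fell. Of 8 fibroblast markers 0 rose and 1 fell, and of 8 endoderm markers 0 rose and 2 fell. Of 5 neural markers 0 rose and 2 fell. Over all genes, 19.2% rose and 22.3% fell with the inhibitor against DMSO by the same rule. The difference between 3′ and 5′ Gapdh control probe sets, a measure of RNA integrity, was -0.148 and -0.216 on MYCi replicates 1 and 2. It was -0.133 to -0.108 on the DMSO and Resc arrays. For Actb it was 0.254 and 0.288 on the MYCi arrays and 0.248 to 0.278 on the DMSO and Resc arrays. The part of these differences in the results below was not tested.

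After 60 h of MYC inhibition, 7 of the 8 measured genes were lower than with DMSO and none was higher. The homeobox gene Cdx1, the ligand acyltransferase gene Porcn and the zinc-finger gene Sp5 fell most, each more than 2-fold, followed by Axin2, Notum, Lef1 and Nkd1. Tcf7l1 did not pass the test. A gene was called where limma's p, adjusted by the Benjamini-Hochberg method over all 18193 genes, was under 0.05. By this rule 41.5% of all genes were called (22.3% lower and 19.2% higher, as shares of all genes), so the count is read against a broad background: the median change of the 8 genes was -0.74 (log2), against a median of -0.058 over all genes and a median size of 0.19. The genes were listed with earlier results of these data known, so their medians, here and below, are not independent of that choice. In bulk RNA, fewer cells expressing a gene and less of its RNA per cell cannot be told apart.

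Cdx1, a caudal-type homeobox gene and a direct Wnt target of the primitive streak and intestine, had a log2 expression of 4.65 and 4.73 on the MYCi arrays, against 6.26, 6.25 and 6.26 on the DMSO arrays. Both inhibitor-treated arrays lay below all 3 DMSO arrays, which were nearly identical. It was 2.95-fold lower (log2 change -1.56 ± 0.0879, moderated standard error; limma adjusted p = 7.02e-07).

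Sp5 encodes an Sp-family zinc-finger factor that is induced by β-catenin and binds near other Wnt targets. Its log2 expression was 6.17 and 6.18 on MYCi arrays and 7.47, 7.22 and 7.55 on DMSO arrays. The groups did not overlap, and Sp5 was 2.37-fold lower with the inhibitor (-1.24 ± 0.102; limma adjusted p = 7.75e-06).

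The feedback inhibitor genes fell by less. Axin2, whose product is a scaffold of the destruction complex, stood at 7.21 and 7.36 on MYCi arrays and at 8.08, 8.04 and 8.02 on DMSO arrays. Both MYCi values were below every DMSO value, by a change of -0.77 ± 0.0774 (limma adjusted p = 2.99e-05), or 1.70-fold lower. Notum, which encodes the secreted hydrolase that strips the lipid from Wnt ligands, had 8.61 and 8.50 on MYCi arrays and 9.18, 9.28 and 9.28 on DMSO arrays. It was 1.62-fold lower, again without overlap (-0.70 ± 0.0662; limma adjusted p = 2.02e-05). Nkd1, which encodes a Dishevelled-binding inhibitor, had 4.46 and 4.76 on MYCi arrays, which differed more than those of the other genes, and 4.82, 5.02 and 4.89 on DMSO arrays. Its change was the smallest that passed (-0.30 ± 0.0951; limma adjusted p = 0.0302). The call ended without MYCi replicate 1 (-0.15; limma adjusted p = 0.285), DMSO replicate 2 (-0.24; 0.0872) or DMSO replicate 3 (-0.31; 0.0551). It also ended after repeated quantile normalization (limma adjusted p = 0.0618) and with only the MYCi and DMSO arrays in the fit (0.0582).

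Promoter sequence was available in the RefSeq table (build GRCm38.p6, 250 bases before to 50 after an annotated start) for 5 of the 8 measured genes, in 8 windows, since Lef1 has 4 starts. Both strands were searched for the TCF/LEF core CTTTGA, which appears as TCAAAG where it lies on the opposite strand, and for the E-box bound by MYC with MAX, which reads CACGTG on both strands and can share no base with the core. The core was present in 2 of the 5 genes, Sp5 and Lef1, against 18.2% of all 27025 genes in the table, and the E-box in 1 of the 5, Lef1, against 8.09%. Shown are Sp5, the gene among these 5 with the core at its only start, and the Lef1 start with matches. Axin2, which fell as Sp5 did and has neither motif in this window, is shown as well. Capitals mark the motifs and all other bases are in lower case, 5′ to 3′ on the strand of the gene.
Sp5 chr2:70474673-70474972 (plus strand): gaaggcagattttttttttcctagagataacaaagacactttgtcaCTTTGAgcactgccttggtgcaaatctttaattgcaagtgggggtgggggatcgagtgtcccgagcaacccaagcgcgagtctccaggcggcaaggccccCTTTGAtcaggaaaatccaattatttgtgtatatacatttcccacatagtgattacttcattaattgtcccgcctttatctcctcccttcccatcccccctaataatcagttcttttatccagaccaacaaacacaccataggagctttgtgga
Lef1 chr3:131156044-131156343 (plus strand): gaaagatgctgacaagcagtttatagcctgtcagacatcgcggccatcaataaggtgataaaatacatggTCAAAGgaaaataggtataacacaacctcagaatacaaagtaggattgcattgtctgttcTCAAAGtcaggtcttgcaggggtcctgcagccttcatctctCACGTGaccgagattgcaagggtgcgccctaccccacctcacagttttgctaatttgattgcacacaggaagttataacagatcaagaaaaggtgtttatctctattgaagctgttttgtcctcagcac
Axin2 chr11:108920099-108920398 (plus strand): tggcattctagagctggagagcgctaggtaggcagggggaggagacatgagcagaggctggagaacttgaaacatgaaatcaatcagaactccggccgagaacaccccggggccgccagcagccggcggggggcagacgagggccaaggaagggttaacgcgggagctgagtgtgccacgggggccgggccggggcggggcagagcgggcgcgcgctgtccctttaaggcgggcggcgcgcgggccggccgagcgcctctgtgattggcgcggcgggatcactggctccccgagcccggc
In Sp5 the core begins at -204 and -104 relative to the start, and in this Lef1 window at -180 and -120 with an E-box between the second core and the start. The other 3 Lef1 windows and those of Axin2, Nkd1 and Tcf7l1 hold neither motif. A gene with several starts has more windows in which to match. Counted by window, the core was in 2 of the 8. Over all 32851 windows of 300 bases, 16.0% hold the core and 7.15% the E-box. A match describes letters and not occupancy.

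The TCF/LEF factor genes behaved unequally with the inhibitor. Lef1, whose product mostly activates Wnt targets when β-catenin is bound, had 5.33 and 5.23 on MYCi arrays and 5.56, 5.78 and 5.78 on DMSO arrays. It was 1.35-fold lower (-0.43 ± 0.0935; limma adjusted p = 0.00436), but did not pass when its probe sets were averaged (-0.15; limma adjusted p = 0.073). Tcf7l1, whose product is the main TCF repressor in ESCs, had 8.62 and 8.60 on MYCi arrays and 8.66, 8.63 and 8.74 on DMSO arrays. The values nearly touched without overlap, a pattern that 60.5% of all genes showed, and the difference of -0.07 had a 95% interval from -0.23 to 0.09 (limma adjusted p = 0.486).

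Porcn encodes the acyltransferase of the endoplasmic reticulum that attaches the lipid a Wnt ligand needs for secretion and receptor binding. Its log2 expression was 4.11 and 4.07 on MYCi arrays and 5.27, 5.67 and 5.42 on DMSO arrays. All MYCi values lay more than 1 unit below all DMSO values, and Porcn was 2.58-fold lower (-1.36 ± 0.115; limma adjusted p = 9.18e-06). Notum, the gene of the opposing enzyme, was lower as well, so the genes for adding and for removing the Wnt lipid both fell.

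**Figure D1:**
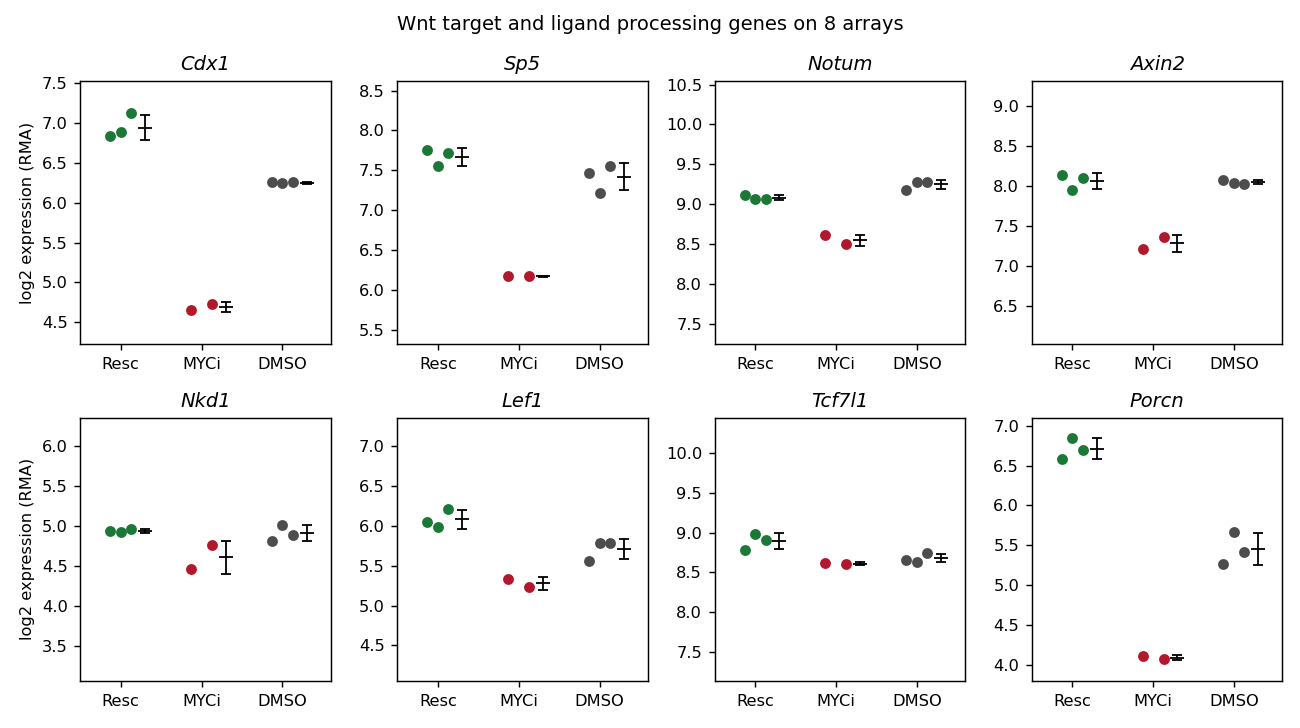
Log2 expression (vertical axis) of the kept probe set of each of the 8 genes on each array, by group (Resc, MYCi, DMSO); points are arrays and the black mark beside them is the mean with its SD. The MYCi points are the lowest group in every panel, and the Resc points of Cdx1, Lef1, Porcn and Tcf7l1 lie above all DMSO points. Of all genes, 60.5% had no overlap between MYCi and DMSO, and 28.6% none between Resc and DMSO, in either direction.

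On release, all 8 genes rose against the inhibitor-treated cells. In this comparison 41.9% of all genes were called (22.7% higher and 19.2% lower, as shares of all genes), and the median change of the 8 genes was 0.79, against 0.061 over all genes. It shares the 2 MYCi arrays with the comparison above, so the values of both are given side by side and not as independent evidence. Porcn had 6.58, 6.84 and 6.70 on Resc arrays and was 6.16-fold higher than in MYCi cells (2.62 ± 0.115; limma adjusted p = 1.37e-07). Cdx1 had 6.83, 6.88 and 7.12 on Resc arrays and was 4.75-fold higher (2.25 ± 0.0879; limma adjusted p = 7.22e-08). Sp5 had 7.76, 7.55 and 7.72 and was 2.83-fold higher (1.50 ± 0.102; limma adjusted p = 2.14e-06). All Resc arrays of these 3 genes lay above both MYCi arrays by more than 1 unit.

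The remaining genes rose by less. Lef1, at 6.05, 5.98 and 6.21 on Resc arrays, was 1.74-fold higher than in MYCi cells (0.80 ± 0.0935; limma adjusted p = 7.86e-05). Axin2, at 8.14, 7.95 and 8.10, was 1.72-fold higher (0.78 ± 0.0774; limma adjusted p = 2.47e-05), and Notum, at 9.12, 9.06 and 9.07, was 1.45-fold higher (0.53 ± 0.0662; limma adjusted p = 0.000121). The Resc and MYCi values of each of these 3 genes did not overlap, as for 61.9% of all genes. Nkd1 had 4.94, 4.93 and 4.96 on Resc arrays, a narrow range above both MYCi arrays (0.33 ± 0.0951; limma adjusted p = 0.0186). Tcf7l1 had 8.78, 8.98 and 8.91 on Resc arrays and rose by 0.28 ± 0.0729 (limma adjusted p = 0.0111). The call of Nkd1 ended without MYCi replicate 1 (0.18; limma adjusted p = 0.189) and after repeated quantile normalization (0.27; 0.0511), and that of Tcf7l1 without MYCi replicate 2 (0.27; limma adjusted p = 0.0647).

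**Figure D2:**
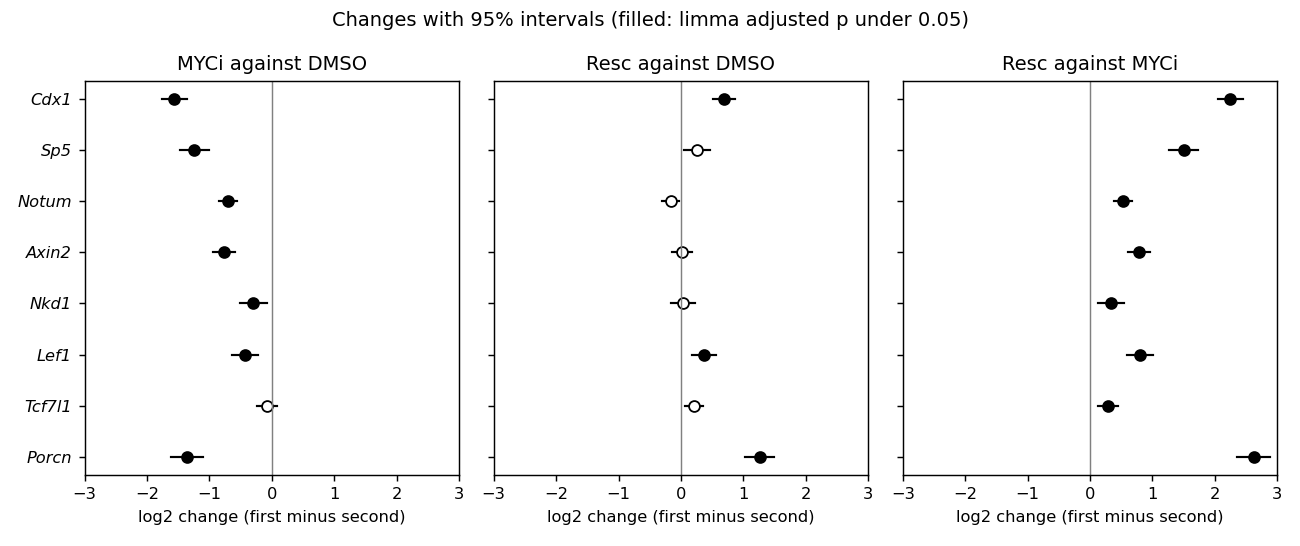
Log2 change of each gene (horizontal axis) in the 3 comparisons, first-named group minus second, with the 95% interval of limma's moderated standard error, not adjusted for the number of genes; filled points passed an adjusted p of 0.05. With the inhibitor 7 genes lie left of 0 and filled, after release against MYCi all 8 lie right of it, and against DMSO only Cdx1, Lef1 and Porcn are filled.

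Set against DMSO, released cells did not hold these genes at 1 common level. Porcn, Cdx1 and Lef1 were higher than in DMSO cells, and the other 5 did not pass the test. Of all genes 8.66% were called in this comparison (4.66% higher and 4.01% lower), and the median change of the 8 genes was 0.24, against 0.002 over all genes. The DMSO arrays are those of the first comparison. Porcn was 2.39-fold higher in Resc than in DMSO cells (1.26 ± 0.103; limma adjusted p = 0.000111), with a mean of 6.71 ± 0.13 (SD, n = 3) against 5.45 ± 0.20 (SD, n = 3). Its lowest Resc value, 6.58, was above its highest DMSO value, 5.67. Cdx1 was 1.61-fold higher (0.69 ± 0.0786; limma adjusted p = 0.000752), with a mean of 6.94 ± 0.16 against 6.25 ± 0.01 (SD, n = 3 each). Lef1 was 1.29-fold higher (0.37 ± 0.0836; limma adjusted p = 0.0237), with 6.08 ± 0.12 against 5.71 ± 0.13 (SD, n = 3 each). Without DMSO replicate 1 (0.30; limma adjusted p = 0.074), Resc replicate 1 (0.39; 0.0579) or Resc replicate 3 (0.31; 0.0793) the call of Lef1 ended.

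Among the genes that did not pass, the feedback inhibitors differed little from DMSO. Axin2 averaged 8.06 ± 0.10 on Resc and 8.05 ± 0.03 on DMSO arrays (SD, n = 3 each), and the 95% interval of the difference ran from -0.14 to 0.17. For Nkd1 the interval ran from -0.16 to 0.22, and for both genes the arrays overlapped. Notum differed by -0.16 ± 0.0592 (limma adjusted p = 0.134), with all 3 Resc values below all DMSO values, a pattern that 28.6% of all genes showed in either direction. Sp5 differed by 0.26 ± 0.0916 (limma adjusted p = 0.128) with overlapping arrays, and Tcf7l1 by 0.21 ± 0.0652 (limma adjusted p = 0.0812) without overlap. With a variance trend and robust fitting, Sp5, Tcf7l1 and Notum also passed, so that 6 of the 8 genes were called. Over all 18193 genes, 2641 were called in that fit, against 1576 in the main fit. Tcf7l1 passed as well when probe sets were averaged (limma adjusted p = 0.0481) and after the filter on low levels (0.0423).

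The order of the group means was the same for Porcn, Cdx1 and Lef1, with Resc above DMSO above MYCi and each step past the threshold. For Sp5, Axin2, Notum and Nkd1 MYCi lay below both other groups, and Resc against DMSO did not pass the threshold in the main fit. Of these genes, Sp5 (higher in Resc) and Notum (lower in Resc) did pass it with a variance trend and robust fitting. For Tcf7l1 Resc lay above MYCi, the MYCi and DMSO means did not differ beyond their spread, and Resc exceeded DMSO only under the 3 alternatives named above.

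Of the 8 genes, 4 have more than 1 probe set. When every probe set was tested, adjusting over all 34945, 8 of the 14 were lower with the inhibitor than with DMSO and 0 were higher, where 37.3% of all probe sets were called and 19.9% were lower. After release 10 of the 14 were higher than in MYCi cells and 0 lower, with 36.8% of all called and 19.9% higher, but 6 were called without MYCi replicate 1. Against DMSO 3 were higher and 0 lower, with 6.63% of all called and 3.61% higher. The second probe sets of Axin2 and Lef1 were near the bottom of the scale and did not pass. The second probe set of Axin2 had 3.33 and 3.21 on MYCi arrays and 3.41, 3.40 and 3.37 on DMSO arrays (-0.12; limma adjusted p = 0.281). The second of Lef1 had 2.92 and 3.10 on MYCi arrays and 3.11, 2.85 and 2.68 on DMSO arrays, with overlap and the other sign (0.13; limma adjusted p = 0.485). Of the 4 probe sets of Nkd1, 2 passed with the inhibitor (-0.37 and -0.30), and the other 2 changed by -0.18 and 0.04. Both probe sets of Tcf7l1 were measured at a high level and moved together, by -0.07 and -0.06 with the inhibitor and by 0.28 and 0.25 on release. Neither passed on release with the replicate block, or without MYCi replicate 1, MYCi replicate 2 or Resc replicate 2.

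**Figure D3:**
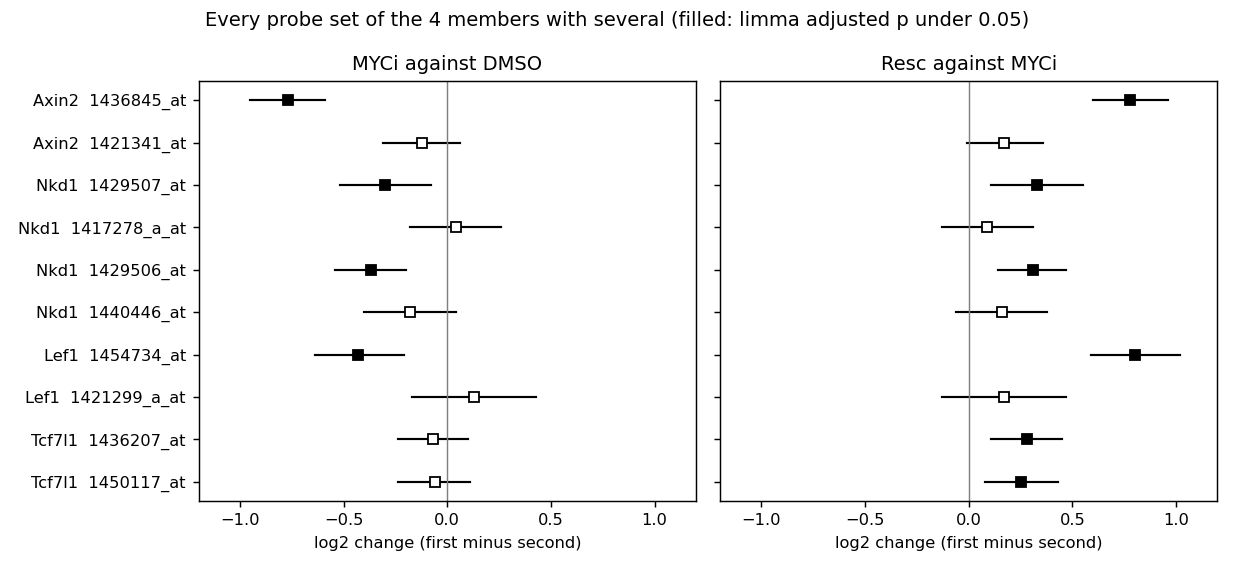
Log2 change (horizontal axis) of each probe set of Axin2, Nkd1, Lef1 and Tcf7l1 for MYCi against DMSO and for Resc against MYCi, with 95% intervals; filled squares passed an adjusted p of 0.05 over all probe sets. The second probe sets of Axin2 and Lef1 and 2 of the 4 of Nkd1 are unfilled in both panels.

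For the 3 genes whose group means spanned at least 1 log2 unit, the genes with the most similar profile over the 8 arrays were found as the smallest root mean square difference after each gene's DMSO mean was subtracted. Nearest to Cdx1 were Fstl1 (0.111 log2 units), Fam25c (0.133) and Elobl (0.133), where the median gene was 0.873 away. Nearest to Sp5 were Cenpf (0.0894), Cdca2 (0.114) and Top2a (0.117), with a median of 0.633 over all genes. Porcn had no gene as near: Elobl, A2m and Ldha were 0.275, 0.276 and 0.298 away, with a median of 1.03. The nearest genes lie below the median by construction. The group means spanned 2.25 units for Cdx1, 1.50 for Sp5 and 2.62 for Porcn, so distances are not on a like scale between them.

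The rest of the pathway was described by 7 lists with 109 measured genes, of which 20 rose and 24 fell with the inhibitor against DMSO, with a median of -0.08. These 44 genes are 40.4% of the 109, near the 41.5% called among all genes (19.2% higher and 22.3% lower). Among 19 Wnt ligand genes, 0 rose and 3 fell, with Wnt5b changed most (-0.55 ± 0.114, limma adjusted p = 0.00307), then Wnt10a (-0.31) and Wnt4 (-0.24). Wnt10a was weak, with means of 3.56 on MYCi and 3.87 on DMSO arrays, and only 8 of the 19 ligand genes remained after the filter on low levels. Without MYCi replicate 2 only 1 ligand gene was called, with limma adjusted p = 0.106 for Wnt10a and 0.0776 for Wnt4. The call of Wnt10a also ended without MYCi replicate 1 (limma adjusted p = 0.0795) or DMSO replicate 1 (0.0674) and after repeated quantile normalization (0.0757). Among 22 receptor and R-spondin genes, 2 rose and 7 fell. Lgr4, a receptor for R-spondins, fell by 1.00 ± 0.0798 (limma adjusted p = 6.42e-06) and Ror2, a receptor of non-canonical Wnt signals, by 0.70 ± 0.0634 (limma adjusted p = 1.49e-05). Each of these calls was made by 1 of 2 probe sets, and the other probe set changed by -0.19 for Lgr4 and by 0.15 for Ror2. Fzd3 was higher (1.55 ± 0.165; limma adjusted p = 4.27e-05), a call made by 1 of its 6 probe sets. Among 18 genes of ligand release and antagonism, 2 rose and 3 fell, and 3 in all were called without MYCi replicate 2. Wls, which encodes the carrier that takes the lipid-modified ligand from PORCN to the cell surface, was 2.96-fold higher with the inhibitor (1.56 ± 0.0902; limma adjusted p = 8.25e-07), opposite to Porcn. It had 7.54 and 7.62 on MYCi arrays and 6.11, 6.00 and 5.93 on DMSO arrays, without overlap, and 3 of its 4 probe sets passed. The antagonist gene Apcdd1 rose (0.63 ± 0.0827) and Sfrp2 fell (-0.54 ± 0.0919). Of the 6 probe sets of Apcdd1 3 passed, and their changes ran from 0.0 to 0.72 over all 6.

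Genes of the destruction complex and its regulators were mostly higher where they changed: of 20, 10 rose and 2 fell, with a median of 0.19. This count and those of the lists below are read against all genes, of which 19.2% rose and 22.3% fell. Ctnnb1, the β-catenin gene, rose by 0.37 ± 0.0611 (limma adjusted p = 0.000853), and all 3 of its probe sets passed. Csnk1e, a CK1 kinase gene, rose by 1.24 ± 0.0738 and the Dishevelled gene Dvl1 by 0.75 ± 0.0849, while Frat2, which encodes a GSK3-binding protein, fell by 1.24 ± 0.0627. For Csnk1e 2 of its 3 probe sets passed, and the lowest change among the 3 was -0.02. Among 13 nuclear partners, 2 rose and 5 fell. The genes of the β-catenin antagonists ICAT, Ctnnbip1 (-0.85 ± 0.0697), and Chibby, Cby1 (-0.66 ± 0.0812), fell, the corepressor gene Tle1 rose (0.53 ± 0.0729), and Tcf7l2 differed by -0.02 (95% interval -0.22 to 0.18). Among 13 other genes known as Wnt targets, 2 rose and 4 fell. The cyclin D1 gene Ccnd1 fell by 2.71 ± 0.0741 (limma adjusted p = 1.25e-08), whereas the AP-1 gene Jun (3.83 ± 0.175) and the helix-loop-helix inhibitor gene Id2 (1.78 ± 0.0817) rose, and Myc differed by -0.17 ± 0.123 (limma adjusted p = 0.316). Of 4 genes that TCF7L1 is known to repress in mouse ESCs, Tfcp2l1 (0.33 ± 0.058) and Esrrb (0.20 ± 0.0591) rose, and neither call held with the mean of the gene's probe sets. The call of Esrrb also ended with median centring (limma adjusted p = 0.0502), with the replicate block (0.067), and without MYCi replicate 1 (0.112), MYCi replicate 2 (0.052) or DMSO replicate 3 (0.0517), so that 1 of the 4 genes was called in each of those fits.

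After release, 29 of the 109 genes were higher and 20 lower than in MYCi cells, and 7 were higher and 5 lower than in DMSO cells. The called shares of the 109, 45.0% and 11%, compare with 41.9% and 8.66% of all genes. Wls was 3.42-fold lower in Resc than in MYCi cells (-1.77 ± 0.0902; limma adjusted p = 3.37e-07) and differed from DMSO by -0.21 ± 0.0807 (limma adjusted p = 0.16), while Porcn exceeded DMSO. Ctnnb1 was lower than in MYCi cells (-0.34 ± 0.0611) and differed from DMSO by 0.03, with a 95% interval from -0.10 to 0.15. Among the other known targets, Ccnd1 was higher (2.96 ± 0.0741) and Jun lower (-4.35 ± 0.175) than in MYCi cells. Against DMSO, the other known targets Bmp4 (0.79 ± 0.0868; limma adjusted p = 0.000605) and Myc (0.54 ± 0.11; limma adjusted p = 0.0148) were higher and Id2 was lower (-1.04 ± 0.0731; limma adjusted p = 4.95e-05). Ccnd1 was higher as well (0.25 ± 0.0663; limma adjusted p = 0.048), but its call ended when any 1 DMSO or Resc array was omitted. The call of Myc ended without DMSO replicate 1 (0.49; limma adjusted p = 0.058) or Resc replicate 1 (0.53; 0.0513). No Wnt ligand gene of the 19 passed limma's test in Resc against DMSO. At an unadjusted p under 0.05 the count was also 0, and with a variance trend and robust fitting it was 0. Only 8 of the 19 remained after the filter on low levels, so weak signals limit what this count can show.

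**Figure D4:**
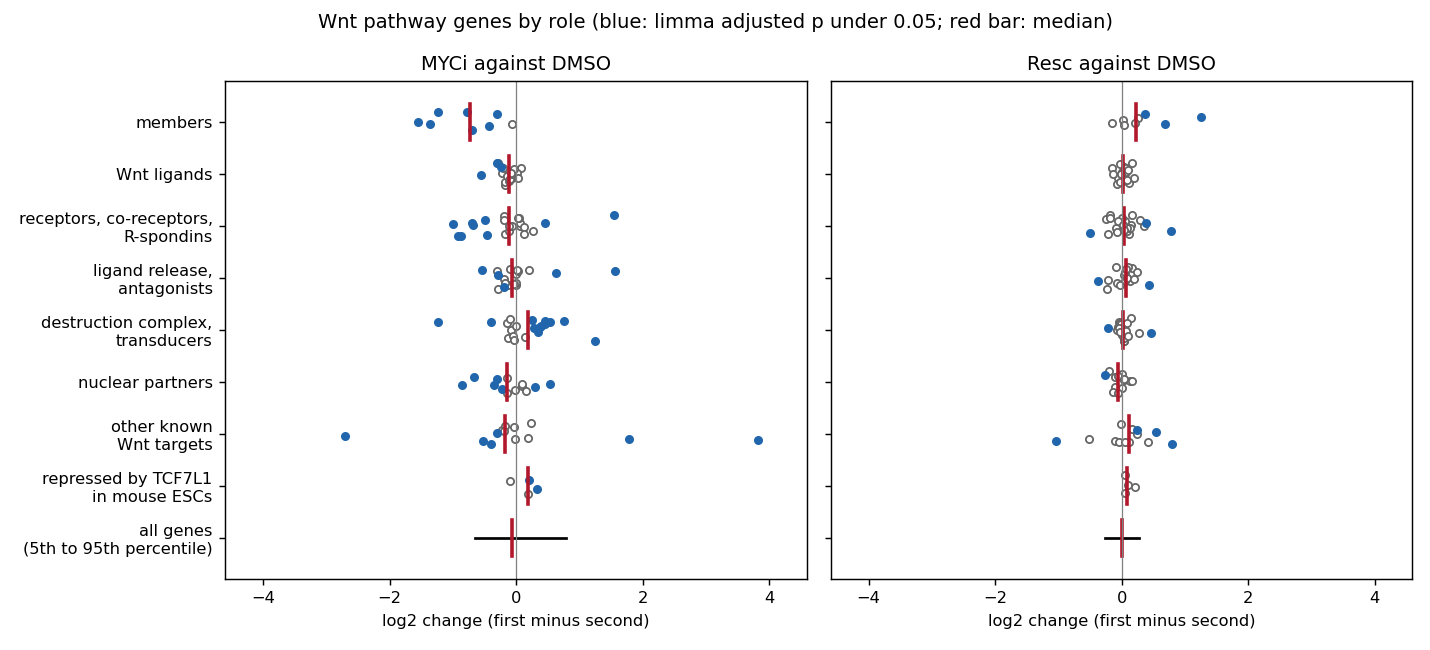
Log2 change (horizontal axis) of every measured gene by role for MYCi against DMSO and for Resc against DMSO; each point is a gene (scattered vertically within its row for visibility), blue points passed an adjusted p of 0.05, red bars are medians, and the black line spans the 5th to 95th percentile of all 18193 genes. The 8 listed genes have the lowest median of the rows in the left panel, -0.74, and the highest in the right panel, 0.24. All lists were chosen with earlier results of these data known, so this order is not independent of the choice.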

How the data were processed

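The authors deposited RMA values on the log2 scale, with 1 value for each probe set of each array; the submitters' processing notes list oligo 1.32.0, RMA and limma 3.2.15. The values lie between 1.69 and 13.76, from which the log2 scale was inferred. RMA equalises the distribution of values between arrays, so a shift shared by most genes is not visible. Arrays give no read depth, and their number limits the precision.

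Of 45101 probe sets, 34945 were paired with a single gene symbol by the platform table, 932 with several and 9160 with none, and 64 are controls. Each of the 18193 genes was represented by its probe set of highest mean level, with no filter on level. All 8 arrays were fitted together, 1 mean per group, with limma 3.58.1 in R 4.3.3 (lmFit and eBayes, two-sided, 5 residual degrees of freedom), with Benjamini-Hochberg adjustment over all genes or over all probe sets. The fit was tested on simulated data. Tables and figures were made with Python 3.11.15, numpy 2.4.6, pandas 2.3.3 and matplotlib 3.10.9. Promoter sequences are RefSeq's.

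The listed genes, the pathway and marker lists and the naming rule were chosen with earlier results of these data known. From each pathway list, up to 3 called genes per comparison with the smallest p could be named, and Ctnnb1, Ccnd1, Myc and Tcf7l2 always. Similar profiles were sought for listed genes whose group means span at least 1 log2 unit. The alternatives averaged a gene's probe sets, dropped rows below percentile 30 of level, centred arrays on their medians, repeated quantile normalization, added a variance trend with robust fitting, weighted arrays, fitted only the groups compared, used a threshold of 0.01, added the replicate number as a block, or omitted 1 array.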

Additional observations from a re-analysis of the deposited data

How the results depend on the processing

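Under the 17 alternatives run for each gene, the calls of Cdx1, Sp5, Notum, Axin2 and Porcn held between MYCi and DMSO, those of these 5 and Lef1 between Resc and MYCi, and those of Cdx1 and Porcn between Resc and DMSO. The call of Nkd1 between MYCi and DMSO ended under 6 alternatives (limma adjusted p from 0.00668 to 0.285 over all 17). With a variance trend and robust fitting, 6 of the 8 genes and 7 of the 14 probe sets were called between Resc and DMSO. Without them it was 3 and 3. Calls over all 18193 genes also rose, from 1576 to 2641, and the cause was not tested. Leaving out 1 array at a time gave 6 to 10 called probe sets between Resc and MYCi, against 10 with all arrays. A change of sign occurred for 4 genes, all in differences that passed the test under none of the alternatives. Between Resc and DMSO, Axin2 was at -0.02 without Resc replicate 1 (leave-one-out range -0.02 to 0.07) and Nkd1 at -0.01 without DMSO replicate 1 (-0.01 to 0.09). With the mean of probe sets, Ctnnb1 was at -0.06 and Tcf7l2 at -0.13, and Tcf7l2 ran from -0.06 to 0.07 in leave-one-out fits. Tcf7l2 was at 0.04 between MYCi and DMSO and at -0.03 between Resc and MYCi with the replicate block, and its leave-one-out ranges there were -0.05 to 0.03 and -0.04 to 0.1. Same-numbered arrays did not deviate together from their group means (correlations from -0.0562 to 0.0141). With 2 or 3 arrays behind each mean, this cannot decide whether the numbers pair the samples. With the replicate number as a block, 7, 3 and 8 of the 8 genes were called for MYCi against DMSO, Resc against DMSO and Resc against MYCi, the same counts as without it, while the called probe sets between Resc and MYCi were 8 against 10, with both of Tcf7l1 lost. The filter at percentile 30 left 9 of the 14 probe sets tested, and detection was not assessed, so levels near the Trpn controls limit what the weak probe sets can show.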
